A study of Drosophila melanogaster with 75 samples.

Results

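The genes that make, move and sense dopamine were followed in the heads of male fruit flies (Drosophila melanogaster) after a 20 min exposure to a female. The set holds 9 genes: Pu, ple and Ddc for synthesis, Vmat and DAT for transport, and Dop1R1, Dop1R2, Dop2R and DopEcR for reception. Members were found by symbol, taking every probe set (a group of short probes read as 1 value) that the array annotation assigns to 1 of these names. This gave 12 of the 18769 probe sets that are not array controls, for 8 of the 9 genes; Dop1R2 was matched to no probe set and is not analysed here. Vmat had 4 probe sets, Dop2R had 2, and the other 6 genes had 1 each.

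Dopamine is made from the amino acid tyrosine. Tyrosine hydroxylase, the product of ple (pale), carries out the rate-limiting step with a tetrahydrobiopterin cofactor whose synthesis begins with Pu (Punch, GTP cyclohydrolase), and dopa decarboxylase, the product of Ddc, completes it. Vmat loads the amine into synaptic vesicles and DAT takes it back up from the synapse. Dop1R1 raises cyclic AMP in the receiving cell, Dop2R lowers it, and DopEcR is a membrane receptor for both dopamine and the steroid ecdysone. In flies dopamine acts in arousal, learning and male courtship drive, and outside the nervous system it is a precursor of the pigments and cross-links of the cuticle, so that whole heads hold ple and Ddc transcript from epidermis as well as from neurons.

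Each of 15 Affymetrix arrays carried RNA from a separate pool of 20 heads of virgin males, 5 days old, from isogenized Canton-S, a standard laboratory stock; p-values therefore measure the spread between pools. Males grew up in groups at 25 degrees C and were moved to single vials on day 4. The courtship arm (5 pools) met a cauterized virgin female for 20 min on day 5, and the males collected had courted for 70% of that time. The control arm (5 pools), whose labels also give 20 min, met no female. The third arm, called male in the labels (5 pools), carries the same treatment label as the courtship arm, so what these males met is not settled by the labels. Values below are log2 of the intensity that the authors computed with GC-RMA in R, and arms are compared within a probe set, never between probe sets. A probe set was tested where its mean over the 15 arrays was at least 4, which 8926 did, 10 of them for dopamine genes; the dim ones were Vmat 1632856_s_at, at 2.42 to 2.49 on all arrays, and Dop2R 1637270_at, at 2.16 to 2.31.

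Arrays agreed closely, with correlations between them of 0.939 to 0.996, but 3 differed from the rest in the ratio of 3' to 5' signal of 5 control transcripts, a measure of RNA integrity. The mean log2 ratio reached 3.99 (male array 1), 3.54 (control array 1) and 3.26 (male array 5), whereas the remaining 12 arrays ran from 2.50 to 2.90. Male arrays 1 and 5 also lay farthest out on the first principal component. For the dopamine genes, differences that rest on male array 1 are given with and without it. Those of other genes are in part given over all arrays only. The photoreceptor markers, of which 5 of 11 had a probe set, all passed the filter on dim probe sets, with a summed linear intensity of 127400 to 131000 per array in control, 116800 to 133400 in courtship and 108800 to 118300 in the male arm. In male against control all 5 of these markers were lower, with a median of -0.21. Of the 5, trp, a light-activated channel subunit, was called (-0.34, adjusted p = 0.0485), beside 3.66% of all probe sets. Without male arrays 1 and 5 the median was -0.23, and 0 of all probe sets were called.

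No dopamine gene passed the test in any comparison (limma, Benjamini-Hochberg adjusted p under 0.05). In courtship against control, 0 of 10 dopamine probe sets were called, as were 0 of all 8926 (0%), with a smallest adjusted p of 0.180. At an unadjusted p under 0.05 the dopamine count was 1 of 10 (Ddc), beside 2.86% of all probe sets. In no dopamine probe set were the 5 courtship arrays clear of the 5 control arrays, which held for 0.605% of all probe sets. The median difference was -0.07 over the 10 (3 higher, 7 lower) and 0.01 over all.

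In male against control, 0 of 10 dopamine probe sets were called, beside 327 of all probe sets (3.66%), a count that ran from 0 to 1027 as single arrays were left out and was 0 without male arrays 1 and 5. Unadjusted p fell under 0.05 for 3 of 10 (Ddc, Vmat 1628739_at and DopEcR), a share close to the 34.1% of all probe sets. The arms were clear of each other in 0 of 10, against 11% of all. The median difference was -0.25 over the 10 (2 higher, 8 lower) and 0.02 over all. In courtship against male, 0 of 10 and 0 of all probe sets (0%) were called, 1 of 10 (Vmat 1628739_at) and 15.2% of all had an unadjusted p under 0.05, and 0 of 10 and 1.84% of all had arms that did not overlap. The comparisons with control share the control arrays, so their values for a gene are not independent.

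**Figure D1:**
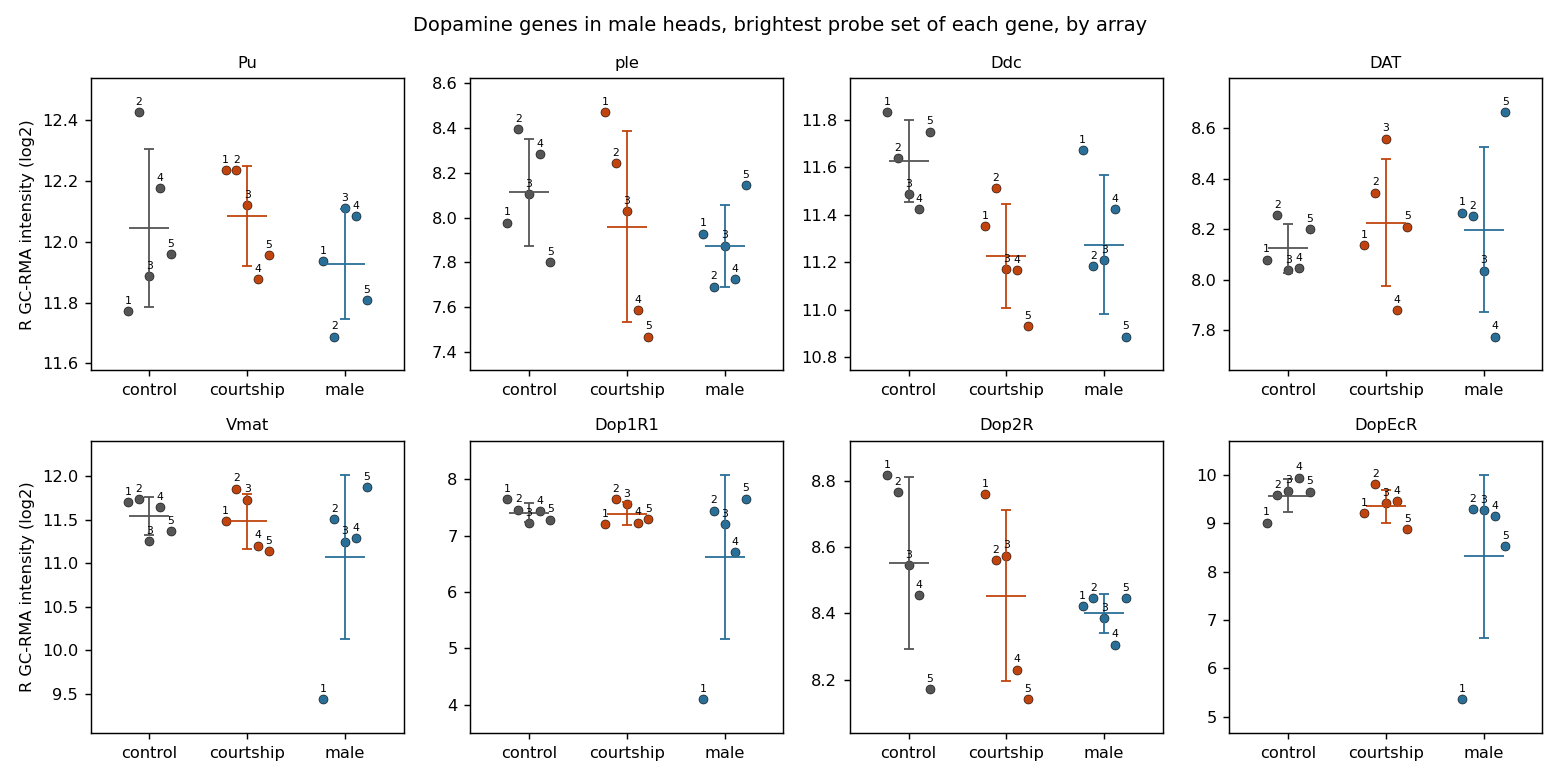
Log2 intensity of the brightest probe set of each of the 8 dopamine genes on each array (numbered points), by arm, with the mean and SD of the 5 arrays; each panel has its own axis. Ddc lies lower in the courtship and male arms than in control with overlap, and male array 1 lies far below the other arrays for Vmat (9.44), Dop1R1 (4.10) and DopEcR (5.36).

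Among the synthesis genes, Ddc (probe set 1639320_a_at) had the smallest p of any dopamine gene in courtship against control. Its level was 11.83, 11.64, 11.49, 11.42 and 11.75 on control arrays 1 to 5. It was 11.35, 11.51, 11.17, 11.17 and 10.93 on courtship arrays 1 to 5. Of the courtship arrays, 4 of 5 lay below every control array, and courtship array 2 lay within the control range. In the male arm the values were 11.67, 11.18, 11.21, 11.42 and 10.89, with arrays 2, 3 and 5 below every control array and array 1 well inside the control range.

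The mean of Ddc was 11.63 ± 0.17 in control, 11.23 ± 0.22 in courtship and 11.27 ± 0.29 in the male arm (SD, n = 5 each). Courtship minus control was -0.40 ± 0.14 (SE; 95% interval -0.70 to -0.10), a level 1.32-fold lower, with an unadjusted p of 0.0125 and an adjusted p of 0.9995. It ranked 66 of 8926 by p. The difference does not survive the adjustment over all probe sets, and 2.86% of all probe sets reached an unadjusted p under 0.05. Its sign and its unadjusted p under 0.05 were the same in all 34 alternative analyses, with differences of -0.47 to -0.24. Filters, variance settings, the threshold of 0.10 and male arrays left out keep the courtship and control means, so they could not change the sign. In the other 4 processings of the same arrays the difference was -0.25 (dChip PM), -0.24 (dChip PM-MM), -0.33 (MAS5) and -0.39 (GeneSpring GC-RMA).

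Male minus control for Ddc was -0.35 ± 0.14, 1.28-fold lower, with an adjusted p of 0.102. Without male array 1, which had the highest Ddc level of its arm, it was -0.45 ± 0.13 (adjusted p = 0.0573). Without male array 5, which had the lowest, it was -0.255, the smallest size with any single array left out. The adjusted p over the 34 alternative analyses ran from 0.0302 to 0.226. The courtship and male arms differed by -0.05 (95% interval -0.35 to 0.25), so neither direction between them was resolved. In whole heads, fewer cells that express Ddc and less transcript per cell cannot be told apart. Summed intensity of the epidermis and cuticle markers, a tissue that also uses Ddc, ran from 21060 to 23540 in control, 23290 to 24530 in courtship and 22910 to 26630 in the male arm. Most of that sum is 1 probe set, of Cpr72Ec, and 4 of the 5 tested markers were higher in each of these arms than in control, with 0 called. The summed neuron markers ran from 7182 to 9032 in control, 4947 to 7391 in courtship and 3795 to 5523 in the male arm. Sh, at a mean of 11.49 the brightest of these markers, weighs most in that sum. In male against control Sh and Rim were called, at -0.75 and -0.78, beside 3.66% of all probe sets. The other neuron markers were at -1.05 (nSyb), -0.67 (para), -0.44 (brp), -0.42 (elav) and 0.16 (cac). In courtship against control 6 of 7 neuron markers were lower and 0 called, with Sh at -0.45, Rim at -0.35 and the variable cac at -1.58, while elav, nSyb and brp were at 0.03, -0.01 and -0.02. The part of either tissue in the Ddc values was not tested.

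The 5 control values of ple (1624452_a_at) were 7.98, 8.39, 8.11, 8.28 and 7.80. The courtship arrays read 8.47, 8.24, 8.03, 7.59 and 7.47, which spans both the highest and the lowest value of all 15 arrays. The male arrays read 7.93, 7.69, 7.87, 7.73 and 8.14. All 3 arms overlapped. Courtship minus control was -0.15 ± 0.18 (95% interval -0.53 to 0.23) and male minus control -0.24 ± 0.18 (-0.62 to 0.14), with an adjusted p of 0.9995 and 0.344.

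The 5 processings differed in how tightly they placed ple. In dChip PM the control arrays read 8.69, 8.83, 8.78, 8.83 and 8.75 and the male arrays 8.51, 8.46, 8.65, 8.43 and 8.58, so that all male arrays lay below all control arrays, a separation picked out after the values were seen. The share of all probe sets with such a separation was counted only in R GC-RMA, where it was 11%. The dChip PM difference was of the same size as in GC-RMA, at -0.25 ± 0.09, with an adjusted p of 0.0832. In MAS5 it was -0.26 ± 0.19 and the arms overlapped. The arms overlapped in GeneSpring GC-RMA too, and in dChip PM-MM male array 3 and control array 1 both read 8.33.

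For Pu (1639469_a_at), the control arrays read 11.77, 12.43, 11.89, 12.18 and 11.96, the courtship arrays 12.24, 12.24, 12.12, 11.88 and 11.96, and the male arrays 11.94, 11.69, 12.11, 12.08 and 11.81. All 3 arms overlapped, with control array 2 the highest and male array 2 the lowest. Courtship minus control was 0.04 (95% interval -0.23 to 0.31) male minus control -0.12 (-0.39 to 0.15) and courtship minus male 0.16 (-0.11 to 0.43).

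Vmat was read by 3 tested probe sets, with differences of both signs. Probe set 1628739_at had the smallest adjusted p of any dopamine probe set in male against control. It read 9.23, 9.37, 9.77, 9.73 and 9.77 on the control arrays, and 9.50, 9.41, 9.72, 9.65 and 9.67 on the courtship arrays. On the male arrays it read 9.98, 9.98, 9.87, 9.70 and 10.14. Male arrays 1, 2, 3 and 5 lay above every control and courtship array, and male array 4 lay among them.

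The mean of 1628739_at was 9.93 ± 0.16 in the male arm, 9.57 ± 0.25 in control and 9.59 ± 0.13 in courtship (SD, n = 5 each). Male minus control was 0.36 ± 0.12 (SE; 95% interval 0.11 to 0.61), 1.28-fold higher, with an adjusted p of 0.0655. Courtship minus male was -0.34 ± 0.12, with an adjusted p of 0.325, and courtship minus control was 0.02 (95% interval -0.23 to 0.27). The male difference was 0.35 without male array 1, 0.28 without male arrays 1 and 5, and 0.19 ± 0.11 (adjusted p = 0.289) when control array 1, the lowest control array, was left out as well.

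The other tested Vmat probe sets did not show the higher level in the male arm. Probe set 1637393_at read 11.70, 11.74, 11.25, 11.65 and 11.37 in control, 11.48, 11.85, 11.73, 11.20 and 11.14 in courtship, and 9.44, 11.50, 11.25, 11.29 and 11.87 in the male arm. Probe set 1636275_a_at read 10.41, 10.14, 10.19, 10.18 and 10.24 in control, 10.17, 10.21, 10.31, 10.11 and 9.95 in courtship, and 8.68, 10.29, 10.21, 10.29 and 10.37 in the male arm. In both, male array 1 was far below the other 14 arrays, which overlapped across arms.

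Male minus control was -0.47 ± 0.34 for 1637393_at and -0.26 ± 0.25 for 1636275_a_at. Without male array 1 these became -0.07 ± 0.17 and 0.06 ± 0.08. The change in 1628739_at was set against that in each of the other probe sets by an exact two-sided permutation test over arrays, a test added after these values were seen. The adjusted p over the 3 pairs was 0.107 against either probe set, and 0.214 without male array 1, so the probe sets were not shown to differ.

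**Figure D2:**
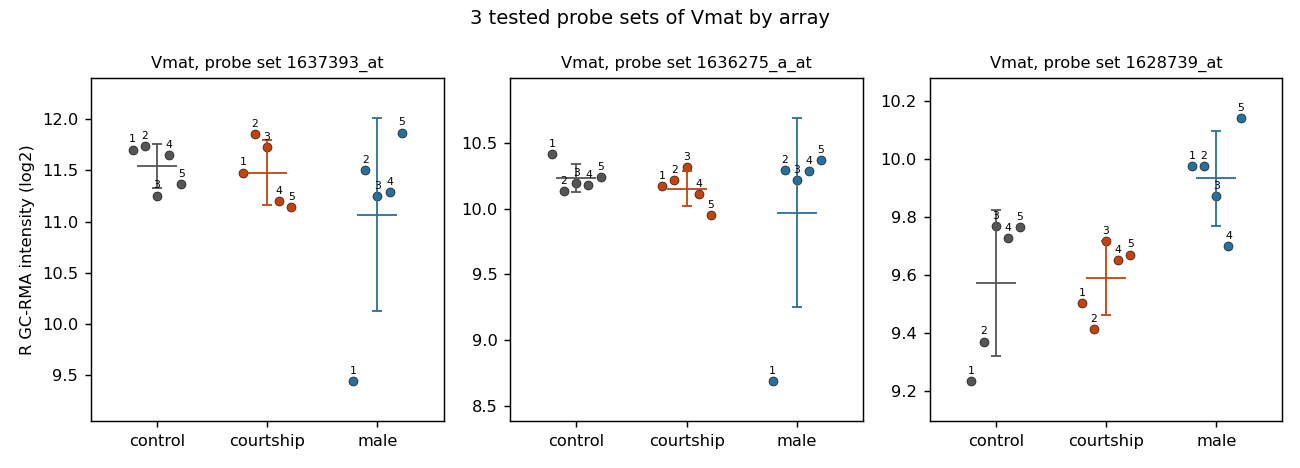
Log2 intensity of the 3 tested probe sets of Vmat on each array (numbered points), by arm, with the mean and SD of 5 arrays; each panel has its own axis. In 1628739_at 4 of 5 male arrays lie above every other array, whereas in the other probe sets the male arm overlaps control apart from array 1.

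DAT (1633205_at), the reuptake transporter, read 8.08, 8.26, 8.04, 8.05 and 8.20 in control, 8.14, 8.35, 8.56, 7.88 and 8.21 in courtship, and 8.27, 8.25, 8.04, 7.78 and 8.66 in the male arm. The control arrays were close together and lay inside the range of both other arms. The difference from control was 0.10 for courtship (95% interval -0.21 to 0.42) and 0.07 for the male arm (-0.24 to 0.39).

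Among the receptors, DopEcR (1637636_at) had the largest difference of any dopamine gene, and 1 array made most of it. It read 9.01, 9.57, 9.67, 9.94 and 9.66 on the control arrays, and 9.20, 9.81, 9.41, 9.46 and 8.89 on the courtship arrays. On the male arrays it read 5.36, 9.29, 9.27, 9.15 and 8.53. The courtship arrays lay within or just below the control range. Male arrays 2, 3 and 4 lay in the lower part of the control range, male array 5 lay below it, and male array 1 was lower than any other array by over 3.

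Male minus control for DopEcR was -1.25 ± 0.58 (SE; unadjusted p = 0.0482, adjusted p = 0.143). Without male array 1 it was -0.51 ± 0.21 (adjusted p = 0.119), and without male arrays 1 and 5 it was -0.34 ± 0.20 (adjusted p = 0.340). With the 3'/5' ratio as a covariate it was -0.92 ± 0.30 (adjusted p = 0.0579). The direction was the same in all 34 alternative analyses, and the size ran from -1.90 to -0.34. Courtship minus control was -0.22 ± 0.58, and -0.22 ± 0.20 without male array 1, whose spread enters the shared error. With the 3'/5' covariate it was -0.68 ± 0.30 (unadjusted p = 0.0427, adjusted p = 0.673), and over the alternatives it ran from -0.68 to 0.13, the last with a block for the letter that opens each sample code.

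Dop1R1 (1629142_at) read 7.65, 7.46, 7.22, 7.43 and 7.28 in control, and 7.20, 7.65, 7.56, 7.23 and 7.29 in courtship. In the male arm it read 4.10, 7.44, 7.21, 6.71 and 7.66. Control and courtship covered nearly the same range, male arrays 2, 3 and 5 fell at or close to it, and male arrays 4 and 1 were lower. Male minus control was -0.79 ± 0.49 (adjusted p = 0.263), and -0.15 ± 0.17 without male array 1. Courtship minus control was -0.02 (95% interval -1.07 to 1.03) over all arrays. Male array 1 widens that interval, because its spread enters the shared error. The SD was 0.17 in control, 0.20 in courtship and 1.46 in the male arm.

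Dop2R (1637749_at) was not low on male array 1. It read 8.82, 8.77, 8.55, 8.45 and 8.17 in control, 8.76, 8.56, 8.57, 8.23 and 8.14 in courtship, and 8.42, 8.45, 8.38, 8.31 and 8.45 in the male arm. The male arrays fell within a narrow band in the lower part of the control range. The courtship arm differed from control by -0.10 (95% interval -0.38 to 0.18) and male minus control -0.15 (-0.43 to 0.13).

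**Figure D3:**
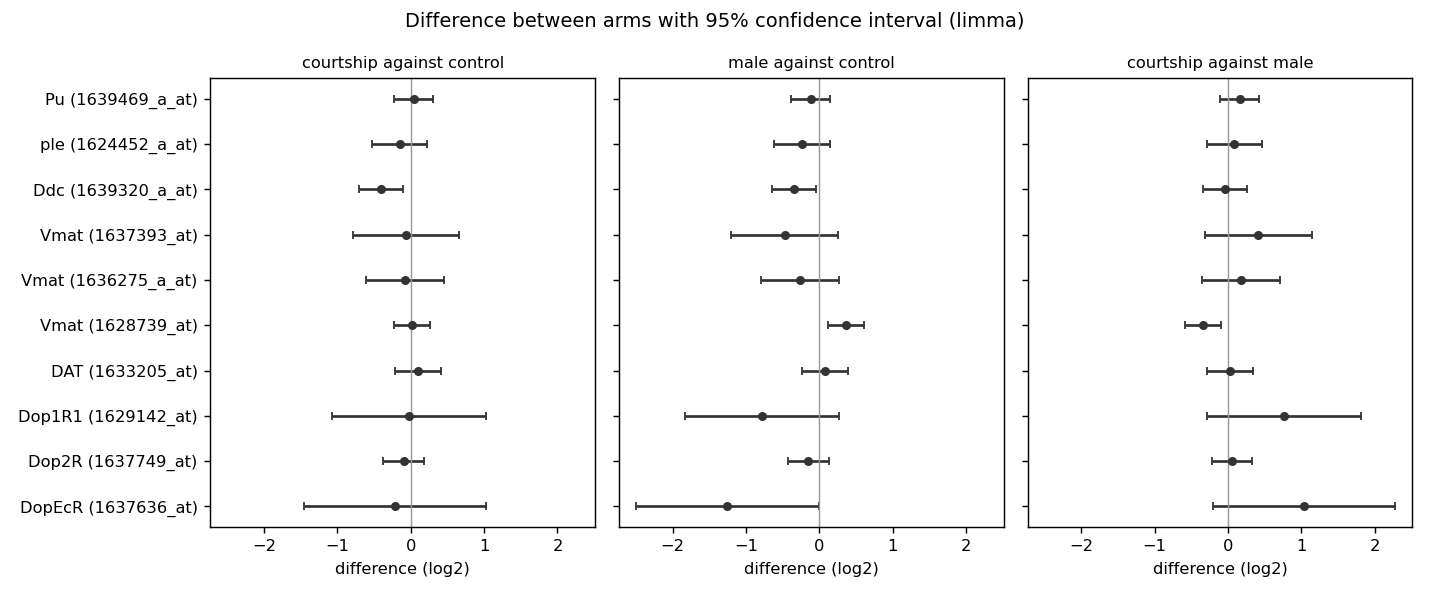
Difference between arms (log2) of the 10 tested dopamine probe sets with its 95% confidence interval from limma, in 3 panels for the 3 comparisons. Intervals clear of 0 are those of Ddc in both comparisons with control, Vmat 1628739_at in both comparisons with the male arm, and, barely, DopEcR in male against control; none has an adjusted p under 0.05.

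Male array 1 separated the dopamine probe sets into those it read low and those it read like the rest of its arm. Its value minus the mean of male arrays 2 to 5 was -3.70 for DopEcR, a deviation that 22 of 8926 probe sets (0.246%) equalled or exceeded. For Dop1R1 the deviation was -3.16 (36 probe sets, 0.403%), for Vmat 1637393_at -2.04 (155, 1.74%) and for Vmat 1636275_a_at -1.61 (258, 2.89%). The other 6 dopamine probe sets deviated by 0.01 to 0.50. For DopEcR, Dop1R1, Vmat 1637393_at and Vmat 1636275_a_at, male array 1 was the lowest of its arm in all 5 processings. The gap was smaller in dChip PM, where DopEcR read 6.73 on this array and 8.64 to 9.11 on male arrays 2 to 5. Dop1R1 read 6.09 there, and 7.37 to 7.97 on male arrays 2 to 5. Over all probe sets the median deviation was 0.11, and 162 (1.81%) were lower on this array by over 2, more than on any other array (46 on male array 5, at most 24 elsewhere). This array also had the highest 3'/5' ratio of the 15; the part of that ratio in these values was not tested.

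**Figure D4:**
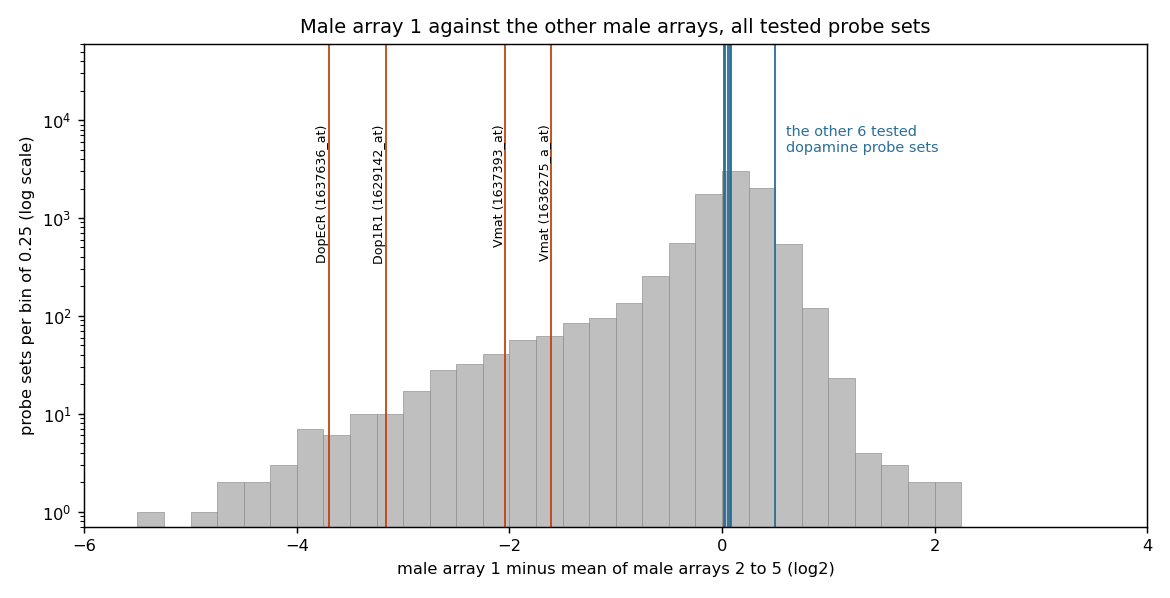
Distribution over all 8926 tested probe sets of the log2 value on male array 1 minus the mean of male arrays 2 to 5 (bins of 0.25, counts on a log axis), with the dopamine probe sets as vertical lines. DopEcR and Dop1R1 stand in the far lower tail at -3.70 and -3.16, Vmat 1637393_at and 1636275_a_at at -2.04 and -1.61, and the other 6 lie between 0.01 and 0.50.

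**Figure D5:**
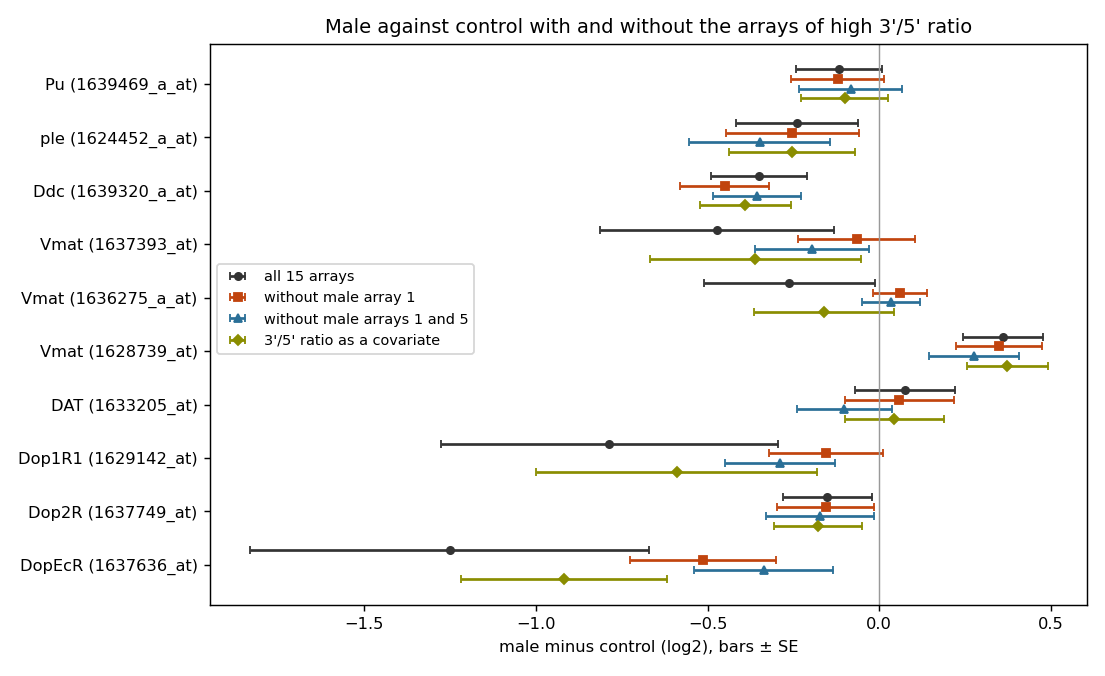
Male minus control (log2, bars SE) of the 10 tested dopamine probe sets over all 15 arrays, without male array 1, without male arrays 1 and 5, and with the 3'/5' ratio as a covariate. Dop1R1 goes from -0.79 to -0.15 and DopEcR from -1.25 to -0.51 without male array 1, while Ddc and Vmat 1628739_at keep their direction in all 4.

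The genes that ran most like each dopamine gene over the 15 arrays are given by Pearson's r of log2 values, as a description, and for DopEcR, Dop1R1 and Vmat 1637393_at that r was lower without male array 1. For DopEcR the closest were Ets98B (r = 0.984), CG5890 and smal (both 0.983), each of which deviated by -2.96 to -2.83 on male array 1, and without that array the r fell to 0.851 to 0.879. For Dop1R1 they were Sarm (0.986), CG4022 (0.979) and CG11099, with 0.621 to 0.895 without the array. Dop1R1 and DopEcR had an r of 0.902 with each other over 15 arrays and of -0.01 over 14. For Vmat 1637393_at the closest were S6kII, Frq1 and CG4022, at 0.971 to 0.981, and 0.830 to 0.888 without the array.

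The patterns of the remaining genes did not rest on that array. Ddc ran closest to flfl (0.900), Ltn1 (0.895) and smash (0.891), with 0.881 to 0.890 over 14 arrays. For ple they were l(2)41Ab (0.902), MED26 and CG32206 (both 0.876), and for Pu they were Vps11 (0.903), CG31637 (0.898) and Trp1 (0.866). For Dop2R they were PEK (0.916), del (0.904) and caup (0.898), and for DAT Ran (0.851), CG6325 (0.844) and Prp3 (0.827). Between the dopamine genes, ple and Dop2R had an r of 0.774 and ple and Pu of 0.603, whereas Ddc and ple, which act in sequence, had 0.305.

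Genes that surround this pathway were taken as lists. In courtship against control 0 members of any list were called, as for all probe sets. Of the list for tetrahydrobiopterin supply and recycling, 4 of 5 were tested and 1 was called in male against control, where 3.66% of all probe sets were called. Dhpr, which encodes dihydropteridine reductase and regenerates the cofactor, rose from 10.23 ± 0.07 in control to 10.57 ± 0.15 in the male arm, 1.26-fold (adjusted p = 0.0397). The list had 3 higher and 1 lower, with a median of 0.19.

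Of the genes for conjugation of dopamine and for sclerotization, 7 of 9 were tested, with 6 higher and 1 lower in male against control and a median of 0.10 (0.23 after quantile normalization). The 1 called, again beside 3.66% of all probe sets, was yellow-f2, which encodes a dopachrome conversion enzyme of the melanin pathway and rose from 8.14 ± 0.21 to 8.79 ± 0.04, 1.57-fold (adjusted p = 0.0464). Of the regulators of tyrosine hydroxylase or Ddc 0 of 4 were called in any comparison. Catsup, a negative regulator of tyrosine hydroxylase, was 0.18 higher in the male arm than in control (adjusted p = 0.0702), and Hr38, a nuclear receptor, was -0.28 in courtship against control (adjusted p = 0.9995).

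Of the genes for signalling below the receptors, 10 of 15 were tested. In male against control 9 of these were lower and 1 higher, with a median of -0.40 beside 0.02 over all probe sets, and of -0.27 without male arrays 1 and 5. The 1 called, likewise beside 3.66%, was the higher one, Galphai, the inhibitory G protein subunit through which D2-like receptors lower cyclic AMP, which rose from 9.46 ± 0.04 to 9.73 ± 0.09, 1.21-fold (adjusted p = 0.0386). The lowest was rut, the calcium-sensitive adenylyl cyclase, named after its values were seen, at -1.30 ± 0.35 (adjusted p = 0.0506). Of the neuron markers 6 of 7 were lower, 2 of them called, with a median of -0.67, and of -0.33 without male arrays 1 and 5, and the photoreceptor markers given above were lower too; their part in the list's values was not tested.

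The calls of Dhpr, yellow-f2 and Galphai held in 18, 18 and 19 of the 34 alternative analyses, with the same direction in all 34. Filters, variance settings and courtship arrays left out could not change the direction. Without male arrays 1 and 5 the differences were 0.30, 0.67 and 0.21, with adjusted p-values of 0.1195 for Dhpr and 0.130 for the other two. Each of the 3 calls also ended (adjusted p = 0.0505 to 0.113) when 1 of control arrays 2 to 5, courtship arrays 1, 3 and 4 or male arrays 2 and 5 was left out, and the call of yellow-f2 without male array 1 or 3 as well (0.0530 and 0.0513). Of the genes for other monoamines (serotonin, octopamine and tyramine), 10 of 18 were tested and 0 were called in any comparison. Of all probe sets, 3.66% were called in male against control and 0% in the other comparisons. In male against control 8 of 10 were lower, with a median of -0.17 (-0.09 after quantile normalization). Over all probe sets 4207 were lower and 4719 higher there, with a median of 0.02. The serotonin receptors 5-HT7 and 5-HT1B had the smallest p, at -1.03 (adjusted p = 0.0506) and -0.54 (adjusted p = 0.0954). In the alternative analyses 5-HT7 was called in 12 of 33 and 5-HT1B in 3 of 34, lower in the male arm each time. Over the 34 alternatives the share of all probe sets called in male against control ran from 0% to 23.3%. With single arrays left out, 5-HT7 ran from -1.16 to -0.743 and 5-HT1B from -0.675 to -0.371.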

How the data were processed

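Labelled head RNA of 15 pools was read on 15 arrays. The authors deposited 75 columns, 5 processings (dChip PM, dChip PM-MM, MAS5, GC-RMA in R and in GeneSpring) of each array, per the labels; the deposited values are linear intensity, judged from their range. GCOS 1.2 and GCRMA are named per the submitters' processing notes; how the dChip and MAS5 values were normalized is not given in the sources used here. By its design, GC-RMA models background from probe sequence, which compresses dim probe sets.

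Log2 was taken (PM-MM values below 1, 746 of them, were set to 1), and 183 AFFX controls were left out of 18952 probe sets. A one-way limma 3.58.1 model (R 4.3.3) over the R GC-RMA columns of all 15 arrays, with 12 residual degrees of freedom, gave 3 contrasts, two-sided, adjusted by Benjamini-Hochberg over the 8926 tested probe sets. The model was first run on simulated data with planted differences and independent noise. Those data held no effect shared by an array, so they do not bear on male array 1. Intervals are 95%. Precision is limited by 5 arrays per arm. Gene names came from the platform annotation, which is old and gave 13647 probe sets 1 symbol, 402 several and 4720 none.

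All probe sets of members were named, the brightest being the main one, with the list genes past the test (else the 2 of smallest p per list) and the 3 probe sets of highest r per member. Members and lists were chosen with earlier results of these data known. Alternatives were the other processings, filters, scalings, blocks, variance settings, array weights, a threshold of 0.10, the 3'/5' ratio and arrays left out.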

Additional observations from a re-analysis of the deposited data

Results flagged for a closer look

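Dixon's outlier rule was applied to the 30 combinations of a tested dopamine probe set and an arm. In 4 of them 1 array lay apart from the other 4 by more than the 95% critical share of the arm's range. For independent normal values the rule marks about 1 in 20, and its share over all probe sets was not counted. Over all probe sets, 162 (1.81%) were lower by over 2 on male array 1, more than on any other array. All 4 marked values were the low value of male array 1, so they are not independent. Its gap to the nearest array, as a share of the range of the male arm, was 0.744 for Vmat 1637393_at, 0.908 for Vmat 1636275_a_at, 0.732 for Dop1R1 and 0.807 for DopEcR. The third tested Vmat probe set, 1628739_at, read 9.98 on that array, inside the range of its arm.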

How the results depend on the processing

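The dopamine count stayed at 0 of 10 in courtship against control and in courtship against male under all 34 alternatives. In male against control it was 1 with the replicate block (Vmat 1628739_at, adjusted p = 0.0411), 1 with array weights (Ddc, -0.34, adjusted p = 0.0302) and 1 at an adjusted p of 0.10 (Vmat 1628739_at), and 0 otherwise, each array left out in turn included. In those 3 analyses 18.9%, 21% and 23.3% of all probe sets were called, so 1 of 10 is below the share of all. Of 1020 differences of dopamine probe sets, 52 changed sign, none of them with an unadjusted p under 0.05. Some of the 1020 come from fits that leave the compared means as they are, and these could not change sign. Galphai in courtship against male went from -0.25 to 0.00625 in dChip PM and 0.04862 in dChip PM-MM; the cause was not tested. The 10 dopamine probe sets and the pathway lists split into the same number of higher and lower members in male against control after median centring and after quantile normalization.

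The labels do not say that a replicate number marks a shared batch. Deviations of same-numbered arrays correlated at -0.288 to 0.473, with 10 of 15 pairs over 0.1, against 19 of 60 pairs of different number, and 6 of 15 arrays correlated best with their own number. Some pairs thus share variation and others do not, and the numbers were not used as pairs in the model reported. With the number as a block the count over all probe sets in male against control was 1690.

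That count, 327 in the model reported, was 64 in dChip PM-MM, 166 in MAS5, 613 in GeneSpring GC-RMA, 12 with no filter, 625 at a mean of at least 6, 572 after median centring, 743 after quantile normalization, 980 with the code letter as a block, 495 with only both arms, 630 with a variance trend, 1873 with array weights, 2083 at an adjusted p of 0.10 and 1009 with the 3'/5' covariate. It was 400 in dChip PM, 335 with log2 of at least 4 on 5 or more arrays, and 327 with a robust variance setting. It was 0 without male arrays 1 and 5, and 0 without control array 1 as well. Single arrays left out gave 0 to 1027: 586, 0, 16, 7 and 71 for control arrays 1 to 5, 37, 1027, 34, 41 and 716 for courtship arrays 1 to 5, and 253, 26, 531, 514 and 21 for male arrays 1 to 5. The cause was not tested.

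Courtship against control, 0 in the model reported, gave 2 in dChip PM, 2 in dChip PM-MM, 12 with array weights, and 0 to 4 with single arrays left out (4 without courtship array 2). Courtship against male, also 0, gave 1 in dChip PM, 1 in dChip PM-MM, 2 in GeneSpring GC-RMA, 2 after quantile normalization, 169 with the code letter as a block, 3 with array weights, 2 at an adjusted p of 0.10, 1 without male arrays 1 and 5, and 0 to 2 with single arrays left out (2 without male array 1).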
